A study of Homo sapiens with 4 samples.

Results

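Septins are GTP-binding proteins that join end to end into rods and filaments at the cell cortex and at the cleavage furrow of dividing cells. The 9 septin genes described here were selected on their names in the deposited gene table, which writes septin symbols as spreadsheet dates: 1-Sep, 2-Sep, 4-Sep, 6-Sep, 7-Sep, 8-Sep, 9-Sep, 10-Sep and 11-Sep, called SEPT1 to SEPT11 below. They are 9 of 13 septins among the 58735 genes of the table. They were chosen with their values against Bulk in view, SEPT4 being high and SEPT11 low in the slow-cycling cells. Every value against Bulk is therefore given as a description, with no test.

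The cells were MDA-MB-231, an established triple-negative breast cancer line, and in all 4 groups they carried a doxycycline-switched H2BeGFP reporter (TetOn). All groups had 3 days of doxycycline at 5 µg/ml and were stained with the Claret and Violet dyes, followed by a 12-day chase in which dividing cells dilute their labels. The 1% of cells that kept most Claret, most eGFP or most Violet were sorted as the Claret, eGFP and Violet slow-cycling groups, while the Bulk sort used no gate on fluorescence. Each group holds 1 library of RNA, so no difference has a replicate check, and intervals and tests below cover counting error between libraries and not variation between cultures.

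Groups follow the sample titles, which match the column names of the deposited counts and FPKM values. The treatment field names another sort in every sample. By that field the library titled Bulk is Claret, the library titled Claret is eGFP, the library titled eGFP is Violet, and the library titled Violet is un-gated. Read that way, the log2 ratios to the un-gated library would be -2.47 for SEPT4 in Claret, 0.14 in eGFP and 0.15 in Violet. For SEPT11 they would be 0.88 (Claret), 0.11 (eGFP) and 0.10 (Violet). In these septin values the library titled Bulk stands apart from the other 3 under either reading, and which reading is right was not tested.

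Summed counts ranged from 15508179 to 16976909 per library. The line's own markers VIM, EGFR, CD44 and KRT18 were present in every library, with between 12507 and 18488 reads for VIM. ESR1 had 3 to 7 reads and PGR had 0, CDH1 had 0 to 3 and EPCAM had 28 to 61, whereas ERBB2, which a triple-negative line carries at a low level, had 1415 to 1542. Markers of other cell types gave 0 reads for CD3E, 0 to 2 for PTPRC, 0 to 6 for ALB, 54 to 87 for PECAM1 and 284 to 363 for COL1A1. The library titled Bulk had 6778 reads of MKI67, a marker of cycling cells, against 995 in Claret, 689 in eGFP and 915 in Violet. TOP2A, a topoisomerase of dividing cells, had 14220 reads in Bulk against 3399, 2487 and 3330. Under the treatment field, the 6778 reads of MKI67 would belong to the Claret sort and the 915 to the un-gated cells. Mitochondrial genes took 4.18% of counts in Bulk and 5.06 to 5.48% in the others. These division markers and the mitochondrial share move with every contrast against Bulk below, and their part in the septin values was not tested.

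Septins fall into groups of related sequence named after SEPT2, SEPT6, SEPT7 and SEPT3. Rods take subunits from the SEPT2, SEPT6 and SEPT7 groups, SEPT7 is the only member of its own, and a longer kind of rod also takes SEPT9 of the SEPT3 group. In cytokinesis the scaffold protein anillin, encoded by ANLN, recruits septins to the contractile ring, and SEPT9 is known to act in the final cut between daughter cells. Outside division, septins act in cell shape and migration, and the Borg proteins (CDC42EP1 to CDC42EP5) link them to the small GTPase CDC42. A splice product of SEPT4 called ARTS binds the apoptosis inhibitor XIAP at mitochondria.

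The sequences just before the start sites of 4 septins are shown: SEPT4 and SEPT9 because theirs hold AP-1 matches, the factor in the title of the study, and SEPT7 and SEPT11 because they were the 2 lowest septins against Bulk. They are RefSeq sequences of GRCh38.p14, read 5′ to 3′ on the gene's strand, with the stretches annotated as UTR in GENCODE 29 left out. Capitals mark any match to the motifs searched on both strands, such as the AP-1 motif TGANTCA, the CCAAT box CCAAT and the E2F motif TTNGCGC. The SEPT4 stretch is chr17:58527995-58528244, the 250 bases before a start site inside the gene, and noncoding transcripts of GENCODE 29 cross it. The SEPT9 stretch is chr17:77404827-77405076, also the 250 bases before a start inside the gene. The SEPT7 stretch is chr7:35800736-35800931, 196 bases, and the SEPT11 stretch is chr4:76949502-76949702, 201 bases, both from before the gene's first annotated exon.
SEPT4: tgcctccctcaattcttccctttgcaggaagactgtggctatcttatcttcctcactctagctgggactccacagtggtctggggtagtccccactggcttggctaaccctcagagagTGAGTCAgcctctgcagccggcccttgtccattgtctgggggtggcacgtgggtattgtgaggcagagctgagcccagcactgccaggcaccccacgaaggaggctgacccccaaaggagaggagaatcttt
SEPT9: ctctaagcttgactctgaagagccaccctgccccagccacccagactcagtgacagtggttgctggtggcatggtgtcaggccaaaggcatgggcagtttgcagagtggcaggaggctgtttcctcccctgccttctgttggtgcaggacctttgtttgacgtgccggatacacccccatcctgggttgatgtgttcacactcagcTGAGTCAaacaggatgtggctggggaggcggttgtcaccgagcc
SEPT7: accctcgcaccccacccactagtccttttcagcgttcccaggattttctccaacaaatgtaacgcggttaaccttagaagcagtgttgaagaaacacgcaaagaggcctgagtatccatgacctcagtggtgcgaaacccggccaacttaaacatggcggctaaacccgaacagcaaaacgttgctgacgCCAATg
SEPT11: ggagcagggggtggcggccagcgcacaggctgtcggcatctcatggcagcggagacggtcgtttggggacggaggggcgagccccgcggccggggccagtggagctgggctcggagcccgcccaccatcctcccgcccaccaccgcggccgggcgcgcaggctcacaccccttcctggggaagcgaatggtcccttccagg

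SEPT4 has a TGAGTCA 132 bases before the start shown, which is 1 of its 4 start sites. SEPT9 has a TGAGTCA 44 bases before the start shown. SEPT7 has a CCAAT 60 bases before the first of its 3 start sites. SEPT11 shows no capitals, and 74.6% of its bases are G or C, against 51.0% in the SEPT7 stretch. In all, the RefSeq table held 25 windows of 250 bases for 8 of the 9 septins, among 35116 promoters. The AP-1 motif was in 5 of the 25, 1 of SEPT4 and 4 of SEPT9, and in 6.57% of all promoters. SEPT9 alone has 10 of the windows, so a gene with many start sites had more chances of a match. The CCAAT box was in 6 windows of 5 septins (32.0% of all promoters) and the E2F motif in 4 windows of 4 septins (6.60%). The CCAAT matches of SEPT7 lie in overlapping windows and are the same bases. The cyclic AMP element TGACGTCA, the ATF4 motif TGATGNAA and the cell-cycle motif TTTGAA (CHR) were in 0 of the 25, and in 1.65%, 3.14% and 13.3% of all promoters. A match is a description of letters and says nothing of binding, and no match in the septin windows overlapped one of another motif.

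Levels of different genes are compared as FPKM, reads per kilobase of gene scaled to a library size, which the authors deposited. That size is not the summed counts. SEPT7 was 24.8 FPKM in Bulk and 15.4 in Violet as deposited, and 24.0 and 15.9 when scaled by summed counts. SEPT2 was the highest septin in every library, with FPKM values of 65.4 (Bulk), 62.2 (Claret), 57.4 (eGFP) and 59.1 (Violet). SEPT9, SEPT10 and SEPT7 followed in that order in every library. SEPT11 and SEPT8 ranked next in Bulk, Claret and eGFP and changed places in Violet. Their counting intervals overlapped in Claret, eGFP and Violet, so these 2 are not separated there, while in Bulk SEPT11, at 22.9 FPKM, lay above SEPT8, at 15.2. SEPT6 was next, between 4.16 and 6.13 FPKM. SEPT1 and SEPT4 were the lowest, SEPT1 between 0.336 and 1.04 FPKM and SEPT4 between 0.0321 and 0.273, and their intervals overlapped in Violet.

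**Figure D1:**
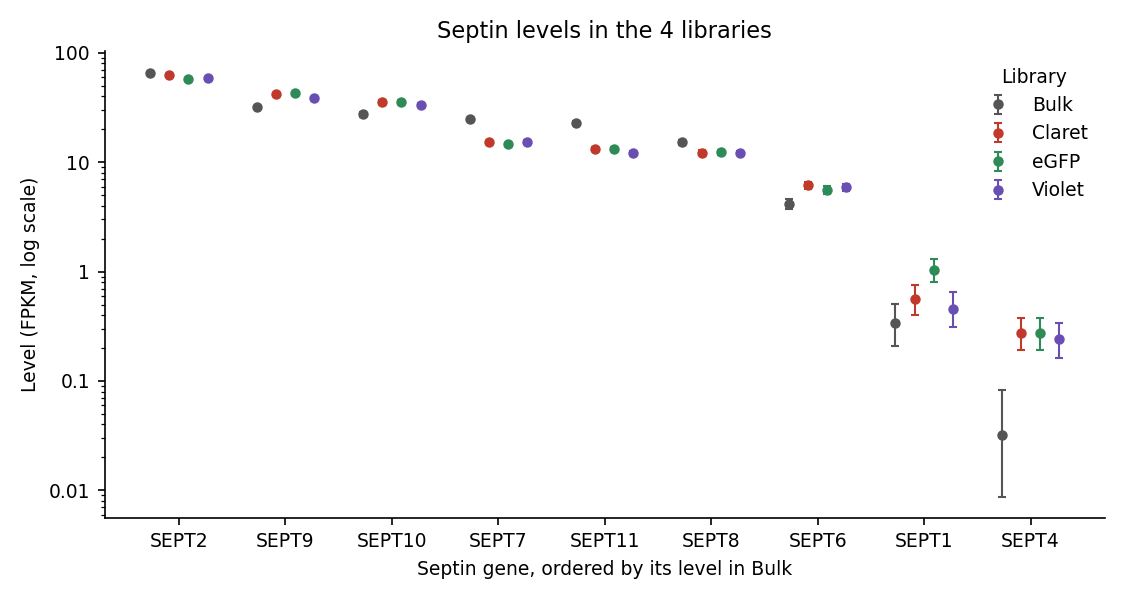
Level of each septin (FPKM, logarithmic axis) in the 4 libraries, ordered by the level in Bulk. Points are single libraries and bars are exact 95% counting intervals. SEPT2 lies between 57.4 and 65.4 FPKM in every library, SEPT7 and SEPT11 are lower in the 3 slow-cycling libraries than in Bulk, and SEPT4 is at 0.0321 FPKM in Bulk and 0.241 to 0.273 in the others.

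Values against Bulk are given as the log2 ratio of CPM, counts scaled to library size, with the sizes adjusted by TMM and a prior count of 2 added, and with the exact 95% interval of the plain ratio of reads. Values given as 3 in a row without library names are in the order Claret, eGFP, Violet. As background, of the 14585 genes with a mean of at least 1 CPM, 11.3% (Claret), 12% (eGFP) and 11.7% (Violet) were higher than Bulk by at least 2-fold. The shares lower by at least 2-fold were 6.72%, 7.64% and 6.92%. The septin rule used this contrast, so these shares are printed beside the septin counts and nothing is read from them. At least 2-fold higher were 1 of 9 septins in Claret (SEPT4), 2 in eGFP (SEPT4 and SEPT1) and 1 in Violet (SEPT4), and 0 were 2-fold lower in any of the 3. The median septin log2 ratios were 0.40, 0.40 and 0.32, beside -0.01, -0.01 and 0.01 over all genes kept. SEPT4 passed the filter on low values only through the slow-cycling libraries, its level in Bulk being 0.254 CPM. A smaller share of septin-expressing cells and less septin RNA per cell cannot be told apart in these libraries.

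**Figure D2:**
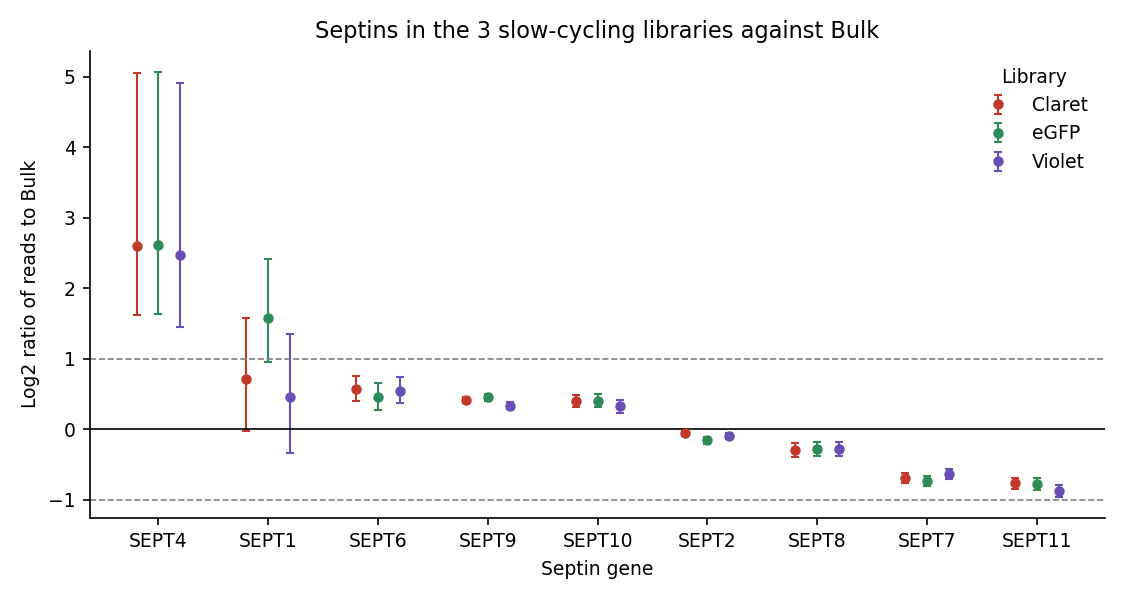
Log2 ratio of each septin to Bulk in Claret, eGFP and Violet, with exact 95% counting intervals of the plain read ratio; dashed lines mark 2-fold. SEPT4 lies above the upper line in all 3 libraries, SEPT7 and SEPT11 lie between the lower line and 0, and the intervals of SEPT1 in Claret and Violet include 0.

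SEPT4 (ENSG00000108387, chr17:58520250-58540818, minus strand) is the septin whose splice product ARTS acts in apoptosis, and as a full-length protein it can take the SEPT2 place in a rod. It had 4 (Bulk), 37 (Claret), 35 (eGFP) and 31 (Violet) reads. The 3 slow-cycling libraries lay close together and far above Bulk. The log2 ratios to Bulk were 2.61 (interval 1.62 to 5.05) in Claret, 2.62 (1.63 to 5.07) in eGFP and 2.47 (1.46 to 4.92) in Violet. Without a prior count the scaled reads were 8.58, 8.67 and 7.76 times those in Bulk. The width of the intervals comes from the 4 reads in Bulk. On the scale log2(FPKM + 1) the same differences were 0.30, 0.30 and 0.27, because the gene stays at or under 0.273 FPKM in every library. The antisense gene SEPT4-AS1, which overlaps it, had 2, 0, 2 and 0 reads. The table counts a gene as a whole, so ARTS and full-length SEPT4 were not measured separately.

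SEPT1 (ENSG00000180096, chr16:30378133-30395991, minus strand), a SEPT2-group septin best known from lymphoid cells, had 22 (Bulk), 40 (Claret), 70 (eGFP) and 31 (Violet) reads. The eGFP library was the highest. Against Bulk its log2 ratio in eGFP was 1.57 (0.95 to 2.42), while in Claret it was 0.71 (-0.03 to 1.58) and in Violet 0.46 (-0.34 to 1.35), whose intervals include 0. On the scale log2(FPKM + 1) the eGFP value was 0.61. The gene shares 17.2% of its exon bases with ZNF48 on the other strand and with AC116348.4, and the use of strand in counting is not given in the sources used here. ZNF48 had 212, 215, 204 and 230 reads in Bulk, Claret, eGFP and Violet, and AC116348.4 had 0.

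SEPT2 (ENSG00000168385, chr2:241315100-241354027, plus strand), the founding subunit of its group and a component of the actin-rich furrow, made up 97.7 to 99.4% of the summed FPKM of the SEPT2 group. It had 7501 (Bulk), 7783 (Claret), 6772 (eGFP) and 7006 (Violet) reads. Its log2 ratios to Bulk, -0.05, -0.16 and -0.10, were the smallest in size among the 9 septins in each library. It shares 4.04% of its exon bases with HDLBP and AC005104.1, and HDLBP had 9688 to 11818 reads.

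The SEPT6 group supplies the subunit between SEPT2 and SEPT7, and its 4 expressed members went different ways. SEPT11 (ENSG00000138758, chr4:76949703-77040384, plus strand) had 3488 (Bulk), 2203 (Claret), 2052 (eGFP) and 1899 (Violet) reads. Every slow-cycling library was below Bulk. Its log2 ratios were -0.77 (-0.85 to -0.69), -0.78 (-0.86 to -0.70) and -0.88 (-0.96 to -0.80), the lowest of the 9 septins. SEPT8 (ENSG00000164402, chr5:132750817-132807241, minus strand), which can replace SEPT6 in a rod, had 1821, 1601, 1514 and 1503 reads, with log2 ratios of -0.29, -0.28 and -0.28. It shares 14.9% of its exon bases with CCNI2, which had only 2 to 4 reads. SEPT10 (ENSG00000186522, chr2:109542982-109614206, minus strand) was higher than Bulk, with 1757 reads there against 2492, 2345 and 2196 in the slow-cycling libraries. Its log2 ratios were 0.40 (0.31 to 0.49), 0.40 (0.31 to 0.49) and 0.32 (0.23 to 0.41). SEPT6 (ENSG00000125354, chrX:119615724-119693370, minus strand), which gives the group its name, had 404, 650, 562 and 591 reads, with log2 ratios of 0.58 (0.40 to 0.76), 0.46 (0.28 to 0.65) and 0.55 (0.36 to 0.74).

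The summed FPKM of the SEPT6 group stayed between 63.2 and 69.7 while its makeup differed. SEPT10 was 39.3% of the group in Bulk, against 52.9%, 53.4% and 52.4% in the slow-cycling libraries. SEPT11 was 32.9% in Bulk and 19.7%, 19.7% and 19.1% in the others. The ratio of SEPT10 to SEPT11 in FPKM was 1.19 in Bulk and 2.68 to 2.74 in the slow-cycling libraries. SEPT10 shares 10.6% of its 31-base words with other genes, mainly the pseudogene SEPT10P1 and SEPT14, which had at most 2 reads and 0 reads in a library.

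SEPT7 (ENSG00000122545, chr7:35800932-35907105, plus strand) is the subunit found in every kind of rod. It had 4199 (Bulk), 2806 (Claret), 2539 (eGFP) and 2689 (Violet) reads. All 3 slow-cycling libraries were below Bulk and near each other. The log2 ratios were -0.69 (-0.76 to -0.62), -0.74 (-0.81 to -0.67) and -0.64 (-0.71 to -0.57). Of its 31-base words 8.22% occur in other genes, mainly SEPT7 pseudogenes, where the authors' counting could have split reads. SEPT7P2 had 303, 355, 343 and 317 reads, and AC138393.1, a pseudogene that shares words with SEPT7P2 and was chosen after its values were seen, had 108, 143, 125 and 149. Neither was lower in the slow-cycling libraries. With both added to SEPT7 the log2 ratios were -0.59, -0.63 and -0.55.

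SEPT7-AS1 (ENSG00000228878, chr7:35751856-35800616, minus strand) is a long noncoding RNA read away from SEPT7, with 315 bases between the 2 genes. It had 14 (Bulk), 61 (Claret), 60 (eGFP) and 70 (Violet) reads. In Bulk it was under 1 CPM, so like SEPT4 it passed the filter only through the slow-cycling libraries. It stood higher than Bulk in the libraries where SEPT7 stood lower, with log2 ratios of 1.88 (1.16 to 2.97), 1.94 (1.23 to 3.04) and 2.17 (1.48 to 3.27). The 2 genes do not overlap, so reads of one cannot be counted for the other by position. Of 23 genes other than septins whose symbol holds SEPT, it and SEPT7P2 were the 2 that passed the filter, and 11 had 0 reads in all 4 libraries.

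SEPT9 (ENSG00000184640, chr17:77280569-77500596, plus strand), the septin of the final cut between daughter cells, had 6361 (Bulk), 9153 (Claret), 8763 (eGFP) and 7997 (Violet) reads. It was higher than Bulk in all 3 slow-cycling libraries, and Violet was the lowest of these. The log2 ratios were 0.42 (0.37 to 0.46), 0.45 (0.40 to 0.50) and 0.33 (0.28 to 0.38). After correction for a smooth trend on transcript GC content, which is 60.1% in this gene and the highest of the 9, they were 0.30, 0.31 and 0.21. The deposited counts are per gene, so the SEPT9 start sites with AP-1 matches could not be measured one by one.

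Summed over the 13 septins the FPKM values were 192 (Bulk), 188 (Claret), 183 (eGFP) and 177 (Violet). Differences between these totals depend on the scaling of the deposited FPKM. Scaled by summed counts, the SEPT6 group was 67.5 in Bulk and 65.5 in Violet, against 69.7 and 63.2 as deposited. SEPT7 was 12.9% of the summed FPKM of the 13 septins in Bulk, against 8.08%, 7.97% and 8.66% in the slow-cycling libraries. The SEPT3 group, which is 99.4 to 99.6% SEPT9, was 16.7% in Bulk and 22.5%, 23.5% and 22.0% in the others. The SEPT9 to SEPT7 ratio in FPKM was 1.29 in Bulk, against 2.77, 2.93 and 2.53 in the slow-cycling libraries. This ratio is not corrected for GC content, which is 60.1% in SEPT9 and 35.3% in SEPT7. With the GC correction the SEPT7 log2 ratios to Bulk were -0.61, -0.65 and -0.61, nearer 0 than without it, as for SEPT9. The other 4 septins added little. SEPT3, a septin of neurons, had 20 to 24 reads in every library. SEPT5 had 0 to 5, SEPT12, a septin of sperm, had 0 to 1, and SEPT14 had 0.

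**Figure D3:**
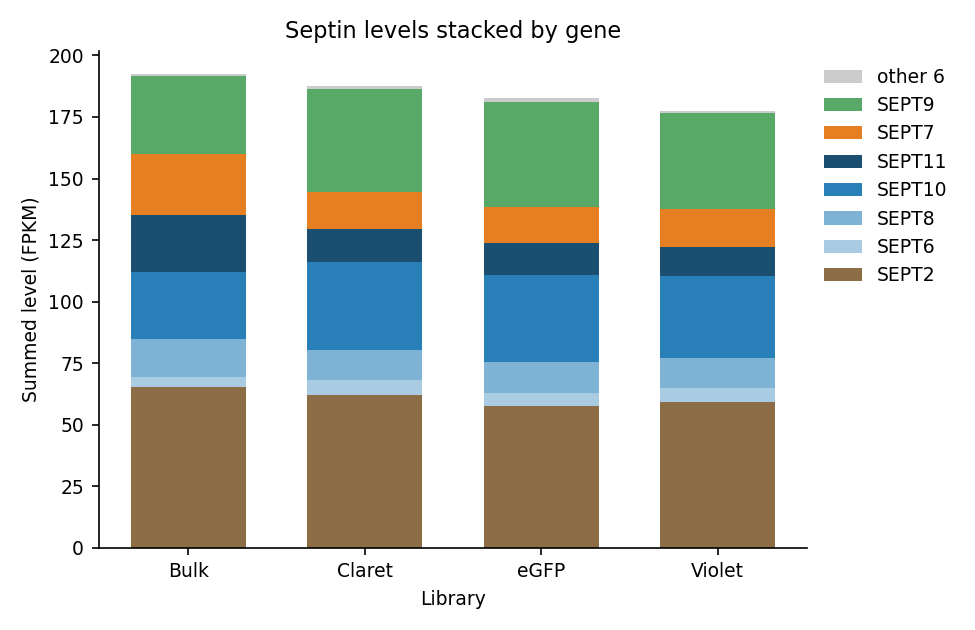
Summed FPKM of the 13 septins in each library, stacked by gene, with the bars starting at 0. Totals lie between 177 and 192 FPKM, the SEPT7 and SEPT11 segments are thinner in the slow-cycling libraries than in Bulk, and the SEPT9 and SEPT10 segments are thicker.

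The slow-cycling libraries were then compared with each other, a contrast that the choice of septins did not use. Each pair was tested by a two-sided exact binomial test on the reads, adjusted by Benjamini-Hochberg over the 14585 genes, and called at an adjusted p under 0.05 with a 2-fold difference. The test compares libraries, not conditions. Of all genes, 0.761% were called between Claret and eGFP, 0.802% between Claret and Violet and 1.01% between eGFP and Violet. With no minimum size the shares were 12.6%, 17.4% and 17.2%. Of 27 septin tests, 1 was called: SEPT1 between eGFP and Violet, 70 against 31 reads, a log2 ratio of 1.11 (0.53 to 1.82) with an exact adjusted p of 0.00185.

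Between Claret and eGFP, SEPT1 was lower in Claret by a log2 ratio of -0.87 (-1.50 to -0.32, exact adjusted p = 0.0175), short of 2-fold. SEPT2 was higher in Claret than in eGFP by 0.11 (0.06 to 0.15, exact adjusted p = 0.000328). SEPT9 was lower in Violet than in Claret by 0.09 (exact adjusted p = 0.00153) and lower than in eGFP by 0.12 (exact adjusted p = 3.7e-06). These 5 were the tests with an adjusted p under 0.05. Leaving SEPT1 aside, all 24 log2 ratios lay between -0.10 and 0.15. For SEPT4 the interval of Claret over eGFP was -0.72 to 0.69, so these counts do not tell ratios within those bounds apart. The interval is not a limit of detection.

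Partner genes were described by list in the contrast against Bulk, with their counts beside the shares over all genes given above. The lists, like the septins, were chosen with earlier results of these data known, and none was tested. Of 22 genes of the contractile ring and central spindle, all kept, 13 lay at least 2-fold below Bulk in each of the slow-cycling libraries, and 1 lay 2-fold above. The 13 include PRC1, chosen after its values were seen, with 62 reads in Bulk against 13, 18 and 22. Of PRC1 exon bases 58.4% are shared with other genes, so its count is uncertain. The list medians were -1.89, -1.86 and -1.54. KIF20A, a mitotic kinesin, had 2418 reads in Bulk against 329, 287 and 326 in the slow-cycling libraries. BIRC5, the survivin subunit of the chromosomal passenger complex, had 2841 reads in Bulk against 478, 272 and 410. ANLN, chosen after its values were seen because anillin recruits septins, had 7360 reads in Bulk against 1435, 1046 and 1233 in the slow-cycling libraries.

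In each slow-cycling library 4 genes of the list had a log2 ratio above 0: MYL12A, MYL12B, MYL9 and MYH9, which all encode chains of nonmuscle myosin (MYL12B and MYL9 were chosen after their values were seen). MYL12A, a myosin regulatory light chain, was the 1 gene at least 2-fold higher, with log2 ratios of 1.17, 1.12 and 1.04, and 13.3% of its 31-base words are shared with other genes, mainly MYL12B. MYH9, a nonmuscle myosin heavy chain, had log2 ratios of 0.17, 0.26 and 0.17. MYH10, another nonmuscle myosin heavy chain of the list, went the other way, with -0.66, -0.60 and -0.50. It was also chosen after its values were seen. The septin log2 ratios, none under -0.88, lay above the medians of this list, as did those of MYH10 and the 4 genes above 0. Septins and list were both chosen with earlier results known, so nothing is read from this.

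**Figure D4:**
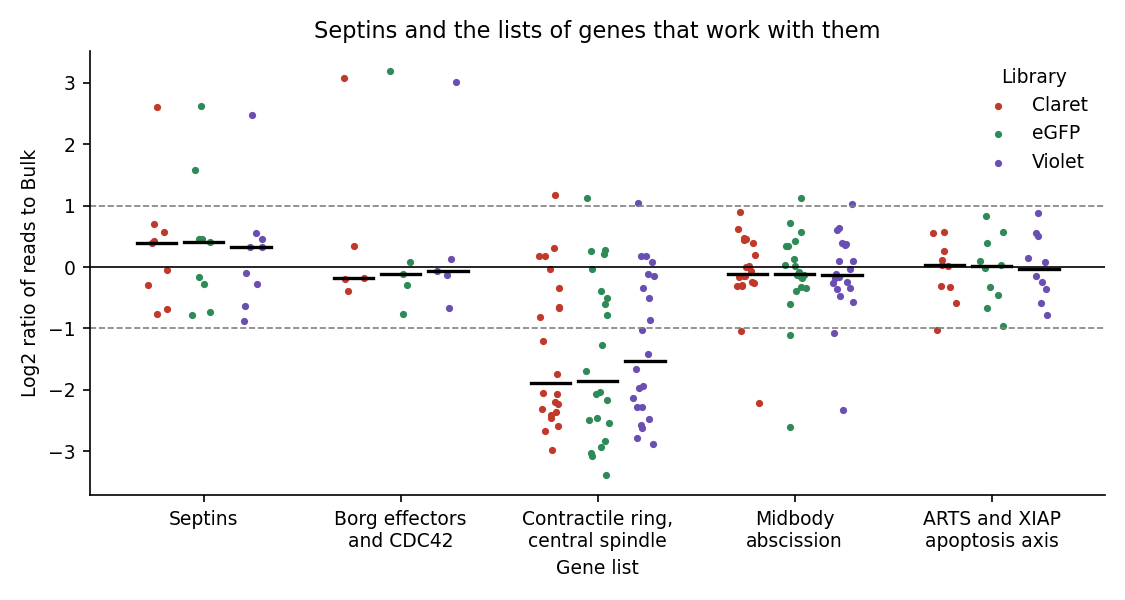
Log2 ratio to Bulk of the 9 septins and of the kept genes of 4 partner lists, in Claret, eGFP and Violet. Each point is a gene, black bars are medians and dashed lines mark 2-fold; the contractile ring medians lie between -1.89 and -1.54, and the septins and the other lists have medians between -0.18 and 0.40.

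Of the 6 genes of the list of Borg proteins and CDC42, 5 were kept, 1 was at least 2-fold higher in each library and 0 were 2-fold lower, with medians of -0.18, -0.12 and -0.06. The higher gene was CDC42EP5, a Borg protein that binds septins, with 4 (Bulk), 52 (Claret), 53 (eGFP) and 46 (Violet) reads. Its log2 ratios were 3.08, 3.19 and 3.01, and like SEPT4 it had few reads in Bulk and passed the filter through the slow-cycling libraries. CDC42EP1 had log2 ratios of 0.34, 0.08 and 0.14, and CDC42EP3 -0.18, -0.29 and -0.13. CDC42 had only 25, 20, 14 and 15 reads, and 59.4% of its exon bases are shared with other genes, so its count is uncertain.

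Of 20 genes of midbody abscission, the ESCRT machinery that cuts the bridge between daughter cells, all were kept. At least 2-fold higher were 0 in Claret and 1 in eGFP and in Violet, and 2 were lower in each, with medians of -0.11, -0.11 and -0.14. The lower genes were CEP55, which brings ESCRT proteins to the midbody (-2.22, -2.60 and -2.33), and CHMP6 (-1.04, -1.10 and -1.07), an ESCRT subunit. The higher gene was CHMP1B (0.90, 1.12 and 1.03), and CHMP2A had 0.62, 0.58 and 0.61. Of CHMP1B exon bases 18.1% are shared with CHMP1B-AS1, and of CHMP6 exon bases 21.5% with another gene.

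Of the 12 rows of the ARTS and XIAP list, in which DIABLO has 2 rows, 10 were kept. None was at least 2-fold higher, and 1 was 2-fold lower in Claret and 0 in eGFP and Violet, with medians of 0.03, 0.01 and -0.04. BCL2, a survival protein of mitochondria, had log2 ratios of -1.02, -0.96 and -0.78. CASP9, the initiator caspase that XIAP inhibits, had 0.56, 0.38 and 0.55, and DIABLO, an XIAP antagonist that shares exons with its other row, 0.57, 0.82 and 0.88. XIAP itself, also chosen after its values were seen, had 1242 reads in Bulk against 1449, 1336 and 1371 in the slow-cycling libraries.

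The genes most like SEPT4 and SEPT11 were taken by the smallest Euclidean distance over the 3 log2 ratios to Bulk, among 12479 protein-coding genes. These ratios are the contrast the septins were chosen on, and all share the Bulk library, so the distances are a description. They are far smaller than the counting intervals, 1.62 to 5.05 for SEPT4 and -0.85 to -0.69 for SEPT11 in Claret, so the nearest genes cannot be told from others at this depth. By the ratios with a prior count of 2, those closest to SEPT4 were ANKFN1 (distance 0.0877), PAQR6 (0.0894) and DDIT4 (0.106). With a prior count of 0.5 the SEPT4 log2 ratios were 2.96, 2.97 and 2.81, a shift larger than these distances. The nearest genes were not taken again at that prior count. DDIT4 had 923 reads in Bulk against 5916, 5413 and 5304 in the slow-cycling libraries. Those closest to SEPT11 were TAP2 (0.0216), RAD1 (0.0263) and PSMD3 (0.0332).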

How the data were processed

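RNA-seq of 4 samples was analysed, 1 library each. The authors deposited whole-number read counts per gene with gene lengths and an FPKM table, per the file headers. The FPKM values are counts per kilobase scaled to a library size other than the summed counts. HISAT2 2.0.5 and featureCounts 1.5.0-p3 are named in the submitters' processing notes; the genome build, strand setting and handling of shared reads are not given in the sources used here. The other deposited column used, gene length, is in bases, per the file headers. Gene starts and ends coincided with GENCODE 29 (GRCh38) for 58735 of 58735 genes, and coordinates are 1-based.

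From the counts, log2 ratios used TMM sizes (edgeR 4.0.16, R 4.3.3) and a prior count of 2, with genes kept at a mean of at least 1 CPM and exact Clopper-Pearson 95% intervals. They cover counting error only, since reads carry no molecular identifiers, and 3 reads, the limit that 0 reads allow, are 0.177 to 0.191 CPM. With 1 library a group edgeR's test has no residual degrees of freedom, so pairs without Bulk were tested by an exact binomial test (scipy 1.17.1), which was tested on simulated data. Alternatives were summed counts, DESeq2 1.42.0 size factors, GC correction, another prior count, other filters, log2(FPKM + 1) and groups from the treatment field.

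The septins and all gene lists were chosen with earlier results of these data known. Named genes were all 9 septins, genes overlapping them or with SEPT in the symbol, the 2 largest rises and falls (smallest of the 3 log2 ratios) of each list, MKI67 and TOP2A, and the 3 genes nearest to SEPT4 and SEPT11. Other names are stated to be chosen after their values were seen. 1 gene that the rule names is not reported here.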

Additional observations from a re-analysis of the deposited data

Results flagged for a closer look

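SEPT1 differed between 2 slow-cycling libraries that are sorted by different labels. It had 70 reads in eGFP and 31 in Violet, a log2 ratio of 1.11 with an interval of 0.53 to 1.82, and the exact adjusted p was 0.00185. It is the 1 septin of 27 tests past both the adjusted p and the 2-fold threshold. Under the treatment field the same 2 libraries would be Violet and un-gated.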

How the results depend on the processing

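With summed counts, DESeq2 size factors, GC correction, a prior count of 0.5 or no filter, the septin and contractile ring counts and the calls between slow-cycling libraries stayed within 1.5 times their reported values. On log2(FPKM + 1), and with a filter at a mean of 10 CPM, the septins at least 2-fold higher than Bulk were 0 in each of Claret, eGFP and Violet, since SEPT1 and SEPT4 are low. On log2(FPKM + 1) the contractile ring genes 2-fold higher in Violet were 0. With groups from the treatment field, the septins 2-fold higher were 0 in Claret and 0 in eGFP, and 1 was 2-fold lower in Claret. The contractile ring genes past 2-fold were then 13 higher against 1 lower in Claret, with 0 in either direction in eGFP or Violet. The SEPT4 log2 ratio in Claret was then -2.47. With the adjusted p alone the septins called were 2 between Claret and eGFP, 1 between Claret and Violet and 2 between eGFP and Violet. At any size, the septins between eGFP and Violet were 4 with summed counts and 3 with GC correction. The exact adjusted p of SEPT1 ranged from 0.00178 to 0.00389 between eGFP and Violet, and from 0.0175 to 0.0357 between Claret and eGFP. With the filter at 10 CPM SEPT1 was not tested, and 0 were called between eGFP and Violet. Of 27 septin log2 ratios, GC correction moved 6 and log2(FPKM + 1) moved 5 beyond their counting interval, and all 27 kept their sign under both. With the treatment field 13 of the 27 changed sign, namely 9 of 9 in Claret, 2 in eGFP (SEPT2 and SEPT11) and 2 in Violet (SEPT6 and SEPT11). Summed counts as library size moved 7 of the 16 subgroup levels beyond their counting interval. No paired analysis was possible because each group holds 1 library. No replicate could be left out for the same reason.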
